A study of Mus musculus with 9 samples.

Results

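Fatty acid desaturases put double bonds into acyl chains, and fatty acid elongases lengthen the chains. The 10 genes described here, the desaturases Scd1, Scd2, Fads1, Fads2 and Fads3 and the elongases Elovl1, Elovl4, Elovl5, Elovl6 and Elovl7, were taken by name from the 24421 genes of a raw read count table of cultured 4T1 cells. After removal of genes with few counts 12575 genes could be tested, the 10 among them. Poly(A) RNA was sequenced from 4T1 cells, a mouse mammary carcinoma cell line, after 5 days in 1 of 3 conditions with 3 libraries each: 3D culture with 75 µM palmitate added, 3D culture with no palmitate added, and 2D culture with 75 µM palmitate added. 3D cells grew as spheroids on soft agar and 2D cells as a monolayer, both in serum-containing medium, so that cells with no added palmitate still had the fatty acids of serum. Palmitate was given bound to albumin, and cells without it received the carrier. The design allows a comparison of culture form at 1 palmitate dose and a comparison of palmitate within spheroids. Both use the same 3D libraries with palmitate, and no 2D culture without palmitate was among the libraries. Nothing in the labels says whether the 3 libraries of a condition came from separate cultures, so p-values measure the spread between libraries, which may be technical.

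Palmitate is the saturated end product of fatty acid synthase. Stearoyl-CoA desaturases (Scd) turn it and its longer relative stearate into the monounsaturated palmitoleate and oleate, and Elovl6 extends palmitate to stearate, so both act directly on the fatty acid that was added. Fads1, Fads2 and Elovl5 work in turn on dietary polyunsaturated precursors and yield highly unsaturated chains such as arachidonate, while Elovl1, Elovl4 and Elovl7 make very long chains, many of them for sphingolipids. Transcription of several of these genes is known to follow SREBP, a membrane-bound factor released when sterols are low, as well as the nuclear receptors LXR and PPAR.

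Total counts per library ranged from 6595514 to 31177756, lowest in 3D+palmitate replicate 3, and Rn45s, a precursor of ribosomal RNA, took 1.77% to 5.38% of them, most in 3D+palmitate replicate 2. All 8 epithelial markers were found in every library, led by the keratins Krt8 and Krt18, with a summed level of 3538 to 3795 CPM (counts of a gene scaled to a common library size) in 2D, 4829 to 4863 in 3D and 4663 to 4898 in 3D+palmitate. The 8 fibroblast markers summed to 33.2 to 34.6 CPM in 2D and 91.8 to 111 in the 3D libraries. Nearly all of that was the receptor gene Pdgfra, Col3a1 and Lum had no count, and 5 of the 8 stayed under 10 counts in every library. The 8 immune markers summed to 24.6 to 27.9 CPM in 2D and 7.17 to 11.6 in 3D, mostly from the lysosomal gene Cd68, with Adgre1, Cd3e and Tyrobp at 0. Endothelial and adipocyte markers stayed under 1 CPM in sum. In such bulk libraries fewer cells of a type and less RNA per cell cannot be told apart, and the part of these marker differences in the results was not tested.

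Some members lie next to each other in the genome and share sequence, which matters for reads of 50 bases. On GRCm38, Scd2 (chr19:44293674-44306864, plus strand) and Scd1 (chr19:44394455-44407879, minus strand) lie 87.6 kb apart, with Scd3 and Scd4 in the same cluster. Fads3 (chr19:10041569-10060110, plus strand), Fads2 (chr19:10062765-10101746, minus strand) and Fads1 (chr19:10182888-10196877, plus strand) form a second cluster, and the ends of Fads3 and Fads2 face each other across 2.7 kb. The longest identical stretches between neighbours, both in coding exons, show where a read could have come from either gene. The Scd1 and Scd2 stretch of 147 bases and the Fads2 and Fads3 stretch of 54 bases were:
Scd1 and Scd2: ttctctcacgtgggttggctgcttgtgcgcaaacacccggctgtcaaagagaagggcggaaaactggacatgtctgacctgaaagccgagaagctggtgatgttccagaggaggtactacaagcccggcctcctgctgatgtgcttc
Fads2 and Fads3: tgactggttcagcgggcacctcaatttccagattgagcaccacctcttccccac
Over the whole longest transcript, 4.66% of possible 50-base reads of Scd1 and 4.01% of those of Scd2 also occur in another gene, and 4.59% of those of Elovl6, chiefly in Gm11295. The share was 0.161% for Fads2, 0.137% for Fads3, 0.227% for Elovl1 and 0.0252% for Elovl7. It was 0% for Fads1, Elovl4 and Elovl5. Elovl1 also shares 53 exon bases with Cdc20 on the opposite strand. Scd2 shares 61 exon bases with Mir5114 on the same strand, and Elovl6 shares 34 with Gm35986 on the opposite strand.

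RefSeq promoter windows (GRCm38.p6) were at hand for 7 of the 10 genes. Scd1, Scd2 and Fads1 had none, so they were not searched for motifs. Elovl1 had 2 windows and the other genes a single one. Of these windows 4 are shown, picked by how the genes differed between 3D and 2D. They are those of the Fads2 and Fads3 neighbours, which changed to different extents, and of Elovl5 and Elovl7, whose log2 fold changes had opposite signs. The change of Elovl5 was small, and its call was lost in 6 of 20 alternative fits. Each is the 250 bases before the start site, 5′ to 3′ on the gene's strand, with the NF-Y motif CCAAT and the GC box GGGCGG in capitals on either strand:
Fads2 (chr19:10101504-10101753, minus strand): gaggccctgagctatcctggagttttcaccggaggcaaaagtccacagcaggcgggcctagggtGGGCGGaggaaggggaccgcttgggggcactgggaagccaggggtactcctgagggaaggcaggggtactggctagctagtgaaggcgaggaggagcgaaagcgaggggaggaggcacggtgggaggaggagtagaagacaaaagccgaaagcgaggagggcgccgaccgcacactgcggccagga
Fads3 (chr19:10041298-10041547, plus strand): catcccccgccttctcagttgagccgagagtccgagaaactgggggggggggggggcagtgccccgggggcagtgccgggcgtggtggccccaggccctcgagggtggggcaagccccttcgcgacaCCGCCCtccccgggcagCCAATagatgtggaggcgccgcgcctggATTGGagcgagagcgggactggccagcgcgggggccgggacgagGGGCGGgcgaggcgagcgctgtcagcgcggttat
Elovl5 (chr9:77917115-77917364, plus strand): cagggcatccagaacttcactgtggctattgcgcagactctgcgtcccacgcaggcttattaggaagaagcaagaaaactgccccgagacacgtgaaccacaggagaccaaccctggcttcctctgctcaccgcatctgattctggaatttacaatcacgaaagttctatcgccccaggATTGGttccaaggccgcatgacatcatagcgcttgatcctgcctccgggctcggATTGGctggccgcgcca
Elovl7 (chr13:108214154-108214403, plus strand): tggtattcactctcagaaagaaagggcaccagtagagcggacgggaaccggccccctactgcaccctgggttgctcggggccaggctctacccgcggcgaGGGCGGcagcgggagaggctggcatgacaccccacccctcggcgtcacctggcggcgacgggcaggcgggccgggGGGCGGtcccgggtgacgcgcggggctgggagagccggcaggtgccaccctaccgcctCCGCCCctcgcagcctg
The NF-Y motif occurred in 3 of the 7 genes (Fads3, Elovl1 and Elovl5) and in 33.8% of all 32851 promoter windows, and the GC box in 5 of the 7 (Fads2, Fads3, Elovl1, Elovl4 and Elovl7) and in 32.7% of all. The E-box CACGTG occurred in Elovl5 alone of the 7 and in 6.02% of all windows. The SREBP binding element of the LDL receptor (0.192% of all windows), the repeats of AGGTCA with 1 base (DR1, 0.0335%) or 4 bases (DR4, 0.0152%) between them and the TATA motif TATAAA (12.4%) were found in none of the 7, searched on both strands. Elovl1 was counted if either of its windows matched, while the shares of all windows are per single window. A match describes these letters in this window and no more.

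Per length, in RPKM (reads per kilobase of exon, scaled for library size), Scd2 was the most abundant of the 10 genes in every condition, at 259 ± 10.4 (SD, n = 3) in 2D+palmitate, 192 ± 32.5 in 3D and 169 ± 14.7 in 3D+palmitate. It held 56.3% ± 0.354, 57.2% ± 1.41 and 53.3% ± 0.983 of the summed RPKM of the 10 genes. Elovl5 came next in all conditions, at 37.6 ± 2.63, 29.4 ± 1.54 and 32.6 ± 2.50 RPKM. Elovl4, which makes the ultra-long chains of retina and skin, was last, at 0.703 ± 0.154, 0.0724 ± 0.0166 and 0.108 ± 0.0120 RPKM. Between these, the order differed with the condition. In 2D+palmitate Fads2 (35.8 ± 2.87 RPKM) and Fads3 (32.8 ± 1.60) followed Elovl5 without a gap. Elovl5 overlapped Fads2, Fads2 overlapped Fads3, and Fads3 lay above Fads1 without overlap on the exon length used here. Elovl7 came in the ninth place there at 8.45 ± 0.214. In 3D+palmitate Fads3 took the ninth place at 5.27 ± 0.755, Elovl6 took the third at 23.5 ± 4.48 and overlapped Fads2 (20.8 ± 1.40), and Elovl7, Scd1, Elovl1 and Fads1 lay together between 16.2 and 16.6 RPKM, each overlapping the next. In 3D without palmitate the same 4 genes ran from 16.9 for Elovl7 to 14.7 for Fads1, again each overlapping the next, and Fads3 stood at 4.37 ± 0.556. The order of these genes depends on the length used, since with the longest transcript in place of the exon union Elovl1 (24.7 RPKM) and Fads1 (22.5) stood above Scd1 and Elovl7 (16.6 each) in 3D+palmitate. With the longest transcript Fads1 (35.3) also stood above Fads3 (33.7) in 2D+palmitate.

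**Figure D1:**
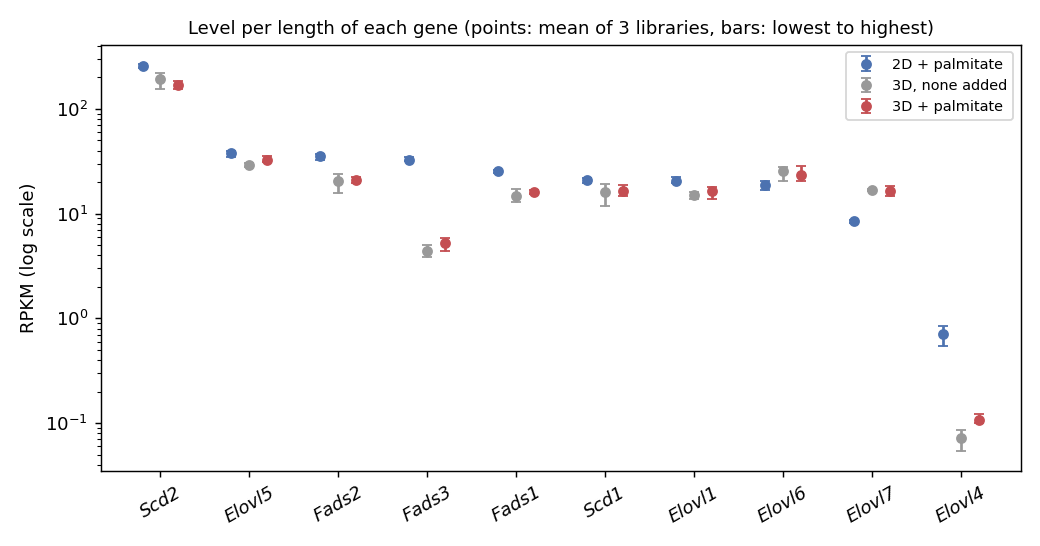
Level of each gene in RPKM on a log axis, with the mean of 3 libraries as a point and the lowest and highest library as a bar, for 2D+palmitate (blue), 3D without palmitate (grey) and 3D+palmitate (red). Scd2 stood at the top in every condition at 169 to 259 RPKM and Elovl4 at the bottom. With the exon union as length, Fads3 was in the fourth place in 2D and the ninth in 3D.

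With palmitate present, 8 of the 10 genes were lower in 3D than in 2D cells, 1 was higher and 1 was not called. Elovl4 is 1 of the 8. It passed the filter on low counts only through its 2D libraries, at 20 to 67 counts. It had 2 to 10 counts in 3D+palmitate and 3 to 5 in 3D. A gene this low in 3D could be tested only if it was higher in 2D. Its call is therefore no support for the direction, wherever members called lower are counted. Changes between 3D and 2D were common in these libraries, with 68.3% of all genes tested called at an adjusted p under 0.05, 33.9% lower and 34.5% higher, and the 9 called members are to be read against that share. The median log2 fold change (3D+palmitate over 2D+palmitate) was -0.49 over the 10 genes and 0.01 over all genes tested. The median of the members was -0.59 after correction for GC content and transcript length. It was -0.35 with at least 10 counts required in every library, where Elovl4 was not tested. The middle 50% of all genes lay between -0.41 and 0.44, which includes the value of -0.35. Scd2, Fads1, Fads2, Fads3 and Elovl4 lay below that range, Elovl7 above it, and the remaining 4 inside it. The levels did not overlap between the groups for 9 of the 10 genes, compared with 69.4% of all genes, with 7 lower (34.8% of all genes) and 2 higher (34.6%). Where a change of at least 0.5 on the log2 scale was also required, 5 of the 10 were lower and 1 higher, and 40.7% of all genes were called.

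**Figure D2:**
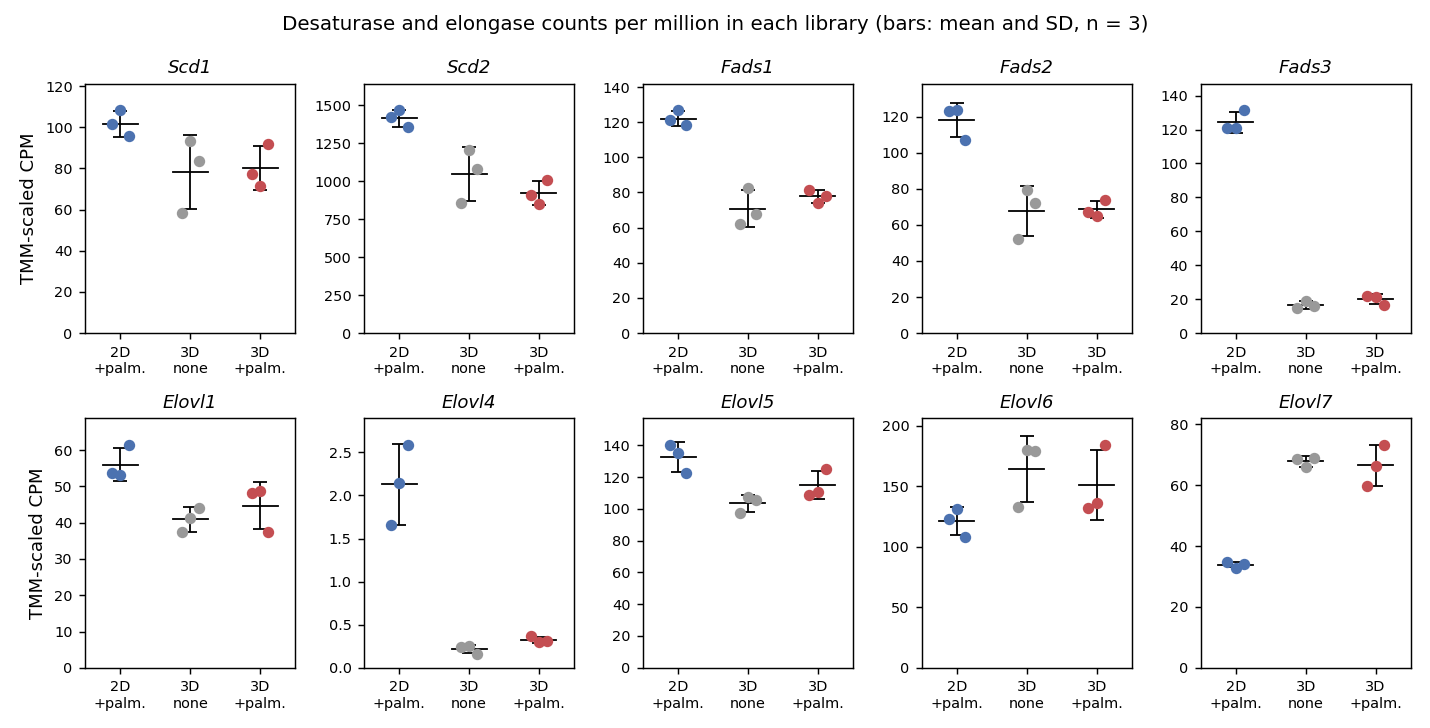
CPM of each gene in each library, scaled by TMM (points, n = 3 per condition), with the mean and SD in black and every axis starting at 0. Fads3 and Elovl4 were far lower in both 3D conditions than in 2D+palmitate, Elovl7 was higher in both, and the 3D groups with and without palmitate lay close together.

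The stearoyl-CoA desaturases were both lower in 3D. Scd2 stood at 1424, 1468 and 1355 CPM in 2D+palmitate and at 910, 848 and 1007 in 3D+palmitate, with no overlap. The log2 fold change was -0.62 ± 0.101 (SE, edgeR quasi-likelihood test, adjusted p = 7.53e-05), which left 65.1% of the 2D level. Scd1, the family member with the strongest known response to diet and hormones in liver and fat, stood at 102, 108 and 95.6 CPM in 2D+palmitate and at 77.4, 71.5 and 92.0 in 3D+palmitate. The 3D values all lay below the 2D values, but the highest 3D library came within 4 CPM of the lowest 2D library. The log2 fold change was -0.36 ± 0.135 (edgeR adjusted p = 0.0291), and the call was lost without 3D+palmitate replicate 2 (adjusted p = 0.126), without 2D+palmitate replicate 1 (0.0537) or 2 (0.0962), and with the Rn45s share as a covariate (0.0645).

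The Fads genes were lower by unequal amounts. Fads3, known for its action on sphingoid bases, showed the largest difference of the 3, at 121, 121 and 131 CPM in 2D+palmitate and 22.0, 21.2 and 16.7 in 3D+palmitate. Every 3D library thus lay far below every 2D library, and the log2 fold change was -2.60 ± 0.0984 (edgeR adjusted p = 1.96e-11), or 6.05-fold lower. Among the 12575 genes Fads3 ranked 94 by p-value. Fads2, the enzyme that opens the polyunsaturated pathway by desaturating linoleate and linolenate, stood at 124, 124 and 107 CPM in 2D+palmitate and 67.1, 65.0 and 73.8 in 3D+palmitate. Fads1, which acts later in the same pathway, stood at 121, 127 and 118 CPM in 2D+palmitate and 81.4, 74.1 and 77.8 in 3D+palmitate. Neither gene's groups overlapped, and the log2 fold changes were -0.79 ± 0.120 for Fads2 (edgeR adjusted p = 3.73e-05) and -0.65 ± 0.0889 for Fads1 (adjusted p = 1.39e-05). The intervals of Fads1 (-0.84 to -0.46) and Fads2 (-1.05 to -0.53) included each other's value, and that of their neighbour Fads3 (-2.81 to -2.39) lay apart from both.

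The elongases went in both directions. Elovl7, which extends saturated long chains, was the 1 gene of the 10 that rose, from 34.7, 33.0 and 34.1 CPM in 2D+palmitate to 59.8, 66.5 and 73.2 in 3D+palmitate. The groups lay well apart, with a log2 fold change of 0.96 ± 0.0758 (edgeR adjusted p = 4.96e-08), or 1.94-fold higher. Elovl4, the lowest expressed, fell from 1.65, 2.15 and 2.58 CPM in 2D+palmitate to 0.368, 0.304 and 0.306 in 3D+palmitate. These levels rest on 20 to 67 counts per 2D library and 2 to 10 per 3D+palmitate library, and the log2 fold change was -2.66 ± 0.304 (edgeR adjusted p = 2.30e-06), a 3D level of 0.158 times the 2D level with a 95% interval of 0.101 to 0.248. That interval includes the value of Fads3, and which of the 2 changed more depended on the fit, with Elovl4 at -2.47 and Fads3 at -2.62 when the Rn45s share was a covariate and -2.51 and -2.56 without 2D+palmitate replicate 3. Elovl1, which makes saturated and monounsaturated very long chains, stood at 53.6, 53.1 and 61.4 CPM in 2D+palmitate and 48.1, 48.8 and 37.4 in 3D+palmitate. Its log2 fold change of -0.30 ± 0.0973 (edgeR adjusted p = 0.0127) was no longer called without 2D+palmitate replicate 3 (adjusted p = 0.0670) or after correction for GC content and transcript length in each library (0.113). Elovl5, the elongase of polyunsaturated chains, stood at 140, 135 and 122 CPM in 2D+palmitate and 109, 111 and 125 in 3D+palmitate. Its groups overlapped by 1 library on each side, and the log2 fold change of -0.21 ± 0.0745 (edgeR adjusted p = 0.0190) lost its call after the GC and length trend was removed (0.0583), with DESeq2 on the 2 groups (0.0517) and without 3D+palmitate replicate 1 (0.0537) or 2 (0.0740) or 2D+palmitate replicate 1 (0.0760) or 2 (0.0555).

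Elovl6 was not called, though it was in 11 of 20 alternative fits. It stood at 123, 131 and 108 CPM in 2D+palmitate and 132, 136 and 184 in 3D+palmitate, so the groups did not overlap but almost touched, and 1 library of 3D+palmitate lay well above the others. The log2 fold change was 0.30 ± 0.131 with a 95% interval of 0.02 to 0.59 (edgeR adjusted p = 0.0517). The call was close to its limit, since DESeq2 on all libraries gave 0.32 (adjusted p = 0.0319) and the 2 groups alone gave 0.31 (adjusted p = 0.0407), while 0.15 remained without 3D+palmitate replicate 3 (adjusted p = 0.216) and 0.05 after removal of the GC and length trend (adjusted p = 0.597). Removal of that trend also took Scd1 to -0.52.

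**Figure D3:**
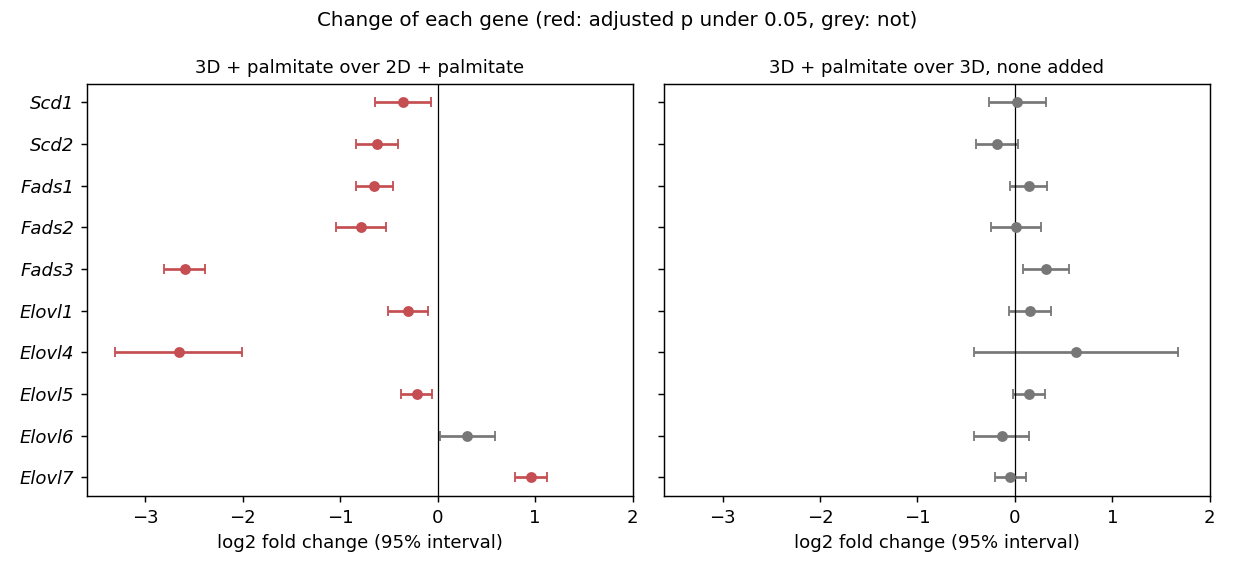
Log2 fold change of each gene with its 95% interval for 3D+palmitate over 2D+palmitate (left) and 3D+palmitate over 3D without palmitate (right), on the same axis, with genes at an adjusted p under 0.05 in red. On the left 8 genes lay below 0 in red and Elovl7 above it, and on the right all 10 were grey.

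Adding palmitate to 3D cells changed none of the 10 genes past the threshold. Few genes were called in this comparison at all (2.19% of all genes tested, 1.38% higher and 0.811% lower), and an unadjusted p under 0.05, which 17.3% of all genes reached, was reached by Fads3 alone of the 10. DESeq2 on all libraries also called 0 of the 10. The median log2 fold change (3D+palmitate over 3D) was 0.08 over the 10 genes and 0.01 over all genes tested. Of the 10 values 7 lay above 0, compared with 52.2% of all genes. The levels of 2 of the 10 genes did not overlap between groups, compared with 18.6% of all genes. Both were higher with palmitate, as were 10.4% of all genes. Where an absolute log2 fold change of at least 0.5 was required beside an adjusted p under 0.05, 0.946% of all genes and 0 of the 10 were called.

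Both stearoyl-CoA desaturases overlapped between 3D cells with and without palmitate. Scd1 stood at 58.4, 93.3 and 83.6 CPM without and 77.4, 71.5 and 92.0 with palmitate, so that the group without palmitate held both the lowest and the highest library. The log2 fold change was 0.02 with a 95% interval of -0.27 to 0.32 (edgeR adjusted p = 0.954). Scd2 stood at 855, 1205 and 1079 CPM without and 910, 848 and 1007 with palmitate, a log2 fold change of -0.18 with an interval of -0.40 to 0.03 (adjusted p = 0.373). The 3D replicate 1 without palmitate was the lowest of its group for both, as it was for 8 of the 10 genes, and without it the values were -0.15 for Scd1 (adjusted p = 0.551) and -0.31 for Scd2 (adjusted p = 0.124).

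Among the Fads genes Fads3 came closest to a difference, at 14.7, 18.9 and 16.1 CPM without and 22.0, 21.2 and 16.7 with palmitate. The highest libraries were 2 of those with palmitate and the third lay inside the other group. Its log2 fold change was 0.32 with an interval of 0.09 to 0.55 (edgeR unadjusted p = 0.0104, adjusted p = 0.145), and it was called without 3D+palmitate replicate 3 (0.40, adjusted p = 0.0117) and after removal of the GC and length trend (0.31, adjusted p = 0.0484). Fads1 stood at 62.2, 82.6 and 67.6 CPM without and 81.4, 74.1 and 77.8 with palmitate, a log2 fold change of 0.14 (-0.05 to 0.33, edgeR adjusted p = 0.453). Fads2 stood at 52.2, 79.3 and 72.1 without and 67.1, 65.0 and 73.8 with palmitate, a log2 fold change of 0.01 (-0.25 to 0.27, adjusted p = 0.973).

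Of the elongases, Elovl5 and Elovl4 had groups that did not overlap. Elovl5 stood at 97.2, 107 and 105 CPM without and 109, 111 and 125 with palmitate, a log2 fold change of 0.14 (-0.02 to 0.30, edgeR adjusted p = 0.343). Elovl4 had 3 to 5 counts per library without palmitate, and its log2 fold change of 0.63 had an interval of -0.42 to 1.68 (adjusted p = 0.576), so that no difference was detectable at this depth. Elovl6 stood at 133, 180 and 180 CPM without and 132, 136 and 184 with palmitate, with libraries of both groups at both ends and a log2 fold change of -0.13 (-0.41 to 0.14, adjusted p = 0.653). Elovl7 ranged from 65.9 to 69.0 CPM without and 59.8 to 73.2 with palmitate, a log2 fold change of -0.04 (-0.20 to 0.11, adjusted p = 0.812). Elovl1 ranged from 37.4 to 44.0 CPM without and 37.4 to 48.8 with palmitate, a log2 fold change of 0.16 (-0.06 to 0.37, adjusted p = 0.453). For the 9 genes other than Elovl4 the intervals thus lay between -0.41 and 0.55.

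Ratios between members within a library do not depend on how libraries were scaled. With 3 against 3 libraries the exact two-sided permutation test cannot give a p below 0.1, and 8 comparisons of 4 ratios were made, so none can pass a threshold of 0.05. Scd1 counts were 0.0714, 0.0737 and 0.0706 of Scd2 counts in 2D+palmitate, 0.0684, 0.0774 and 0.0775 in 3D, and 0.0850, 0.0844 and 0.0915 in 3D+palmitate. The 3D+palmitate libraries lay above those of both other conditions, and the mean log2 ratio was higher by 0.27 than in 2D+palmitate and by 0.23 than in 3D (exact permutation p = 0.1 for both, n = 3). Scd1 to Elovl6, a desaturase and an elongase that both take palmitate as substrate, ran from 0.824 to 0.882 in 2D+palmitate and from 0.50 to 0.584 in 3D+palmitate. Its mean log2 ratio was -0.25 in 2D+palmitate, -1.08 in 3D and -0.90 in 3D+palmitate (exact permutation p = 0.1 against 2D+palmitate and 0.2 against 3D, n = 3). Elovl5 to Elovl6 ran from 1.03 to 1.14 in 2D+palmitate and from 0.678 to 0.820 in 3D+palmitate, without overlap (exact permutation p = 0.1, n = 3), and overlapped between the 3D conditions (exact permutation p = 0.2, n = 3). Fads2 to Fads1 overlapped in both comparisons, with mean log2 ratios of -0.05 in 2D+palmitate, -0.07 in 3D and -0.18 in 3D+palmitate (exact permutation p = 0.2 and 0.4, n = 3).

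**Figure D4:**
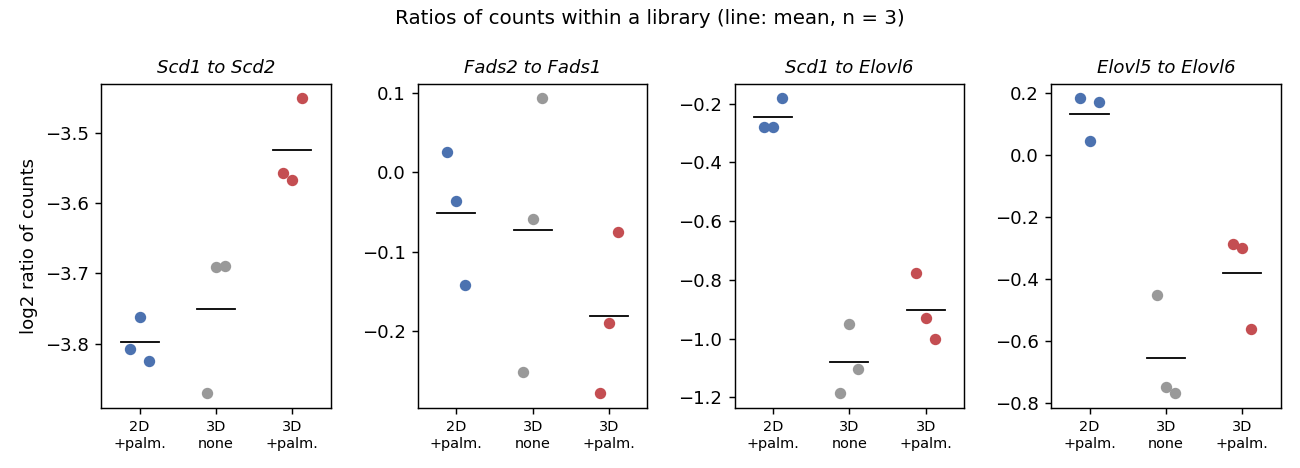
Log2 ratio of counts of 2 genes in the same library (points, n = 3 per condition) with the group mean as a line, for 4 ratios, each on its own axis. Scd1 to Scd2 was highest in 3D+palmitate, Scd1 to Elovl6 and Elovl5 to Elovl6 were higher in 2D+palmitate than in both 3D groups, and Fads2 to Fads1 overlapped.

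Within a condition, the spread of log2 CPM pooled over the 3 conditions was smallest for Elovl7 (SD 0.0891) and Elovl5 (0.0969) and largest for Elovl4 (0.291), Scd1 (0.236) and Elovl6 (0.226). Over the 6 3D libraries, which differ in depth and in palmitate, Scd1 and Fads2 varied together (Pearson r = 0.981) and Elovl6 varied with Scd2 (0.872) and Scd1 (0.835), while Fads3 and Elovl7 varied in opposite directions (-0.744). Over all 9 libraries the difference between 2D and 3D also enters each correlation. There r was 0.00534 for Elovl6 with Scd1 and -0.243 for Elovl6 with Scd2. It was 0.904 for Scd1 with Fads2 and -0.993 for Fads3 with Elovl7. Over these 9 libraries the genes most like Scd1 among those tested were Mrc1 (r = 0.961), Fam43a (0.952) and Prcp (0.943). Those most like Fads2 were Chaf1a (0.989), Tfdp1 (0.986) and Tnfaip3 (0.983). Elovl6 was most like Hsd17b7 (0.990), followed by Nfatc3 (0.976) and Dclre1b (0.971). These genes were picked as the highest among all genes tested over only 9 libraries, so the size of r is no measure of shared control.

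The list counts that follow are to be read against the 68.3% of all genes called in 3D against 2D and the 2.19% called with palmitate in 3D. Of the other desaturases and elongases, 4 of 8 could be tested, and the remaining 4, Fads6, Degs2, Elovl2 and Elovl3, had too few counts. Degs1, which desaturates dihydroceramide, rose from 185 ± 2.18 CPM (SD, n = 3) in 2D+palmitate to 302 ± 7.98 in 3D+palmitate (log2 fold change 0.71, edgeR adjusted p = 1.01e-07). The low-level Scd paralogs went apart, with Scd3 at 1.56 ± 0.0725 CPM in 2D+palmitate and 4.46 ± 0.631 in 3D+palmitate (1.52, adjusted p = 1.32e-06) and Scd4 at 2.03 ± 0.271 and 1.14 ± 0.197 (-0.78, adjusted p = 0.00868). Scd3 shares 6.69% of its possible reads with other genes and Scd4 6.32%, so their counts are uncertain. With palmitate in 3D, 0 of these 4 genes were called. Elongases need a reductase and a dehydratase to finish each cycle. Of 6 such partners tested, 1 fell in 3D against 2D, the reductase gene Tecr (-0.46, adjusted p = 0.000840), and with palmitate in 3D 1 rose, the dehydratase gene Hacd1 (0.61, adjusted p = 0.0273), from 9.55 ± 1.09 to 14.1 ± 2.34 CPM. The Hacd1 call was lost in the fit of the 2 groups alone, with the replicate block, with the Rn45s share as a covariate and in 6 of the 9 fits that left 1 library out. Desaturases draw electrons from cytochrome b5 and its reductases. Of 6 such genes 3 rose and 1 fell in 3D against 2D, with Cyb5r1 at -0.90 (adjusted p = 2.50e-07), Cyb5r3 at 0.54 (1.95e-06) and Cyb5rl at 0.69 (0.00303), and 0 were called with palmitate in 3D.

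Upstream of the 10 genes, palmitate synthesis went both ways in 3D against 2D, with 3 of 8 tested genes higher and 3 lower (median log2 fold change 0.01). Slc25a1, the mitochondrial citrate carrier, fell by 1.14 on the log2 scale (edgeR adjusted p = 1.87e-08), Mid1ip1, a partner of acetyl-CoA carboxylase, fell by 0.66 (6.86e-07), and Fasn, the synthase itself, rose by 0.36 (0.00190). Of the SREBP control genes 5 of 7 rose and 0 fell (median 0.28), led by the retention factor genes Insig2 (0.56, adjusted p = 5.96e-06) and Insig1 (0.40, 0.000715) and the protease gene Mbtps1 (0.28, 0.000702). Of the sterol synthesis and uptake genes, which SREBP also drives, 12 of 19 fell and 4 rose (median -0.37), with Mvd at -1.24 (7.36e-07), Fdps at -0.91 (6.63e-06) and the sterol carrier gene Stard4 at 1.01 (6.59e-06). After the correction for GC content and length the median was -0.27 for palmitate synthesis and 0.10 for SREBP control. With palmitate in 3D, 0 of these 34 genes were called. The sterol genes had a median of -0.14 there, with 1 of 19 above 0, compared with 52.2% of all genes tested. With 1 library left out the sterol median ran from -0.22 (without 3D replicate 1) to -0.06 (without 3D replicate 2).

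Of the LXR genes 2 of 6 rose and 2 fell in 3D against 2D, with the cholesterol exporter gene Abca1 at 2.61 (edgeR adjusted p = 3.58e-06), the phospholipid acyltransferase gene Lpcat3 at -0.58 (2.29e-06) and the receptor gene Nr1h2 at 0.45 (0.000293). Abca1 had only 2 to 12 counts per library in 2D+palmitate and 10 to 53 in 3D+palmitate, which limits its value. With palmitate in 3D, Mylip, which marks the LDL receptor for breakdown, fell by 0.65 (0.00667) and the other 5 were not called. With the Rn45s share as a covariate 0 of the 6 were called, and without 3D+palmitate replicate 3 there were 2. The PPAR list was the one with the most calls on palmitate. In 3D with against without palmitate 6 of 13 rose and 0 fell, led by the lipid droplet coat gene Plin2, from 78.7 ± 1.44 to 161 ± 9.40 CPM (1.03, adjusted p = 1.40e-06), the secreted lipase inhibitor gene Angptl4 (2.64, 9.72e-05) and the carnitine palmitoyltransferase gene Cpt1a (0.36, 0.00667). The number called was 2 with the Rn45s share as a covariate, 3 with the replicate block or the 2 groups alone, 2 without 3D replicate 2 and 3 without 3D replicate 3. The low counts of Angptl4, 7 to 10 per library without palmitate, limit its value. In 3D against 2D 6 of the 13 rose and 5 fell, with Cpt1a at 1.94 (3.46e-12) and the receptor gene Ppard at 0.94 (1.93e-07), while Plin2 (-0.62, 4.83e-07) and Angptl4 (-0.93, 7.50e-05) were lower in 3D. Of the genes that shorten chains in peroxisomes 3 of 6 rose and 1 fell in 3D against 2D, among them Scp2 (0.62, 2.96e-06). Of the genes that activate acyl chains or place them in phospholipids 5 of 11 rose and 3 fell, with Acsl4, which prefers arachidonate, at 1.90 (2.97e-09), Lpcat1 at 0.79 (2.75e-06) and Lpcat3 as above. With palmitate in 3D, 0 genes of the peroxisomal and acyl chain lists were called. In the 7 lists with 0 calls there, DESeq2 on all libraries also called 0, and an unadjusted p under 0.05 was reached by 1 of 8 palmitate synthesis genes, 2 of 19 sterol genes and 2 of 11 acyl chain genes. Over all lists beside the 10 genes, 60 of 84 tested genes were called in 3D against 2D, where 68.3% of all genes were, and 8 of 84 with palmitate in 3D, where 2.19% were.

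**Figure D5:**
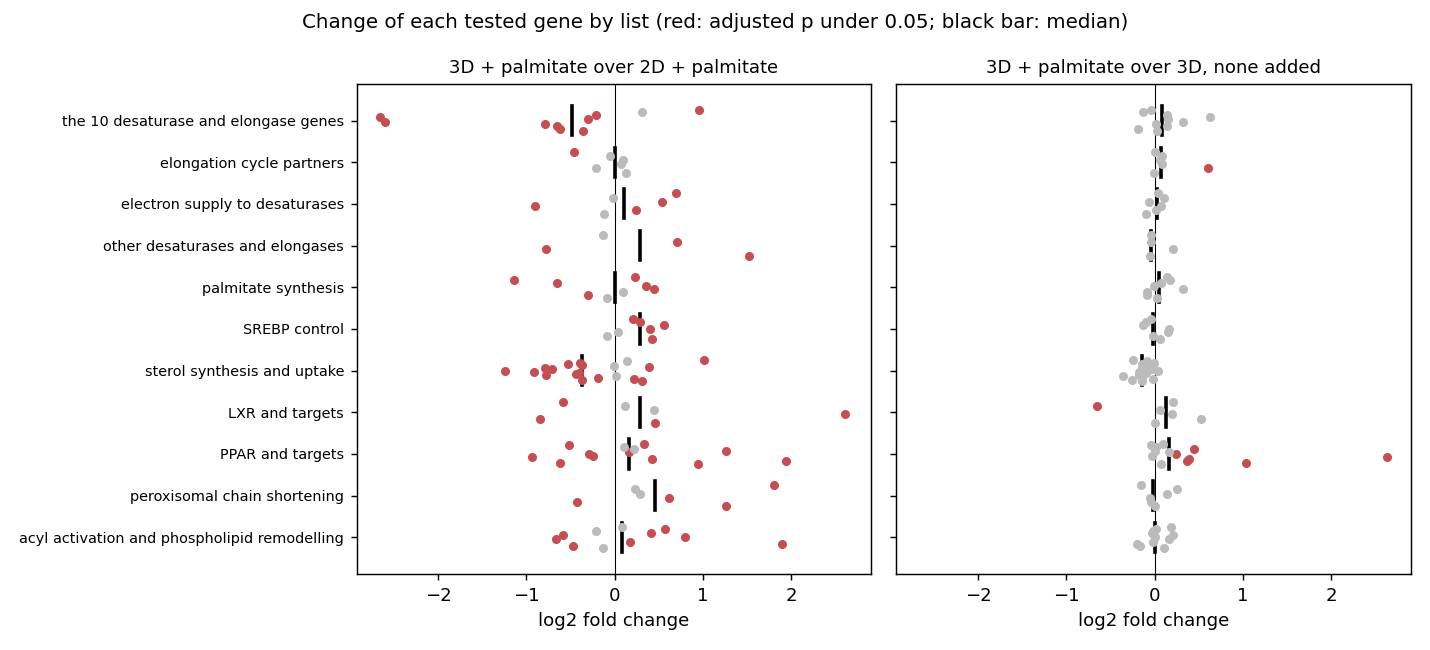
Log2 fold change of every tested gene by list (points, red at an adjusted p under 0.05) with the list's median as a black bar, for 3D+palmitate over 2D+palmitate (left) and 3D+palmitate over 3D without palmitate (right), on the same axis. On the left the 10 desaturase and elongase genes had a median of -0.49 and the sterol genes -0.37, and on the right red points appeared only among the elongation partners, the LXR list and the PPAR list.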

How the data were processed

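Poly(A) RNA of 9 libraries of 4T1 cells was sequenced after a stranded preparation (KAPA Stranded mRNA). The values deposited by the authors are raw counts of reads per gene: cleaned 50-base single-end reads (fastq-mcf, FastQC 0.11.9) were aligned to GRCm38 (mm10) with HISAT2 2.1.0 and counted with HTSeq-count. The annotation release and the strand setting of the counting are not given in the sources used here, so reads of overlapping genes and of near-identical paralogs could have been split or lost. Libraries were grouped by their labels.

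edgeR 4.0.16 in R 4.3.3 was run on the counts (filterByExpr by group, TMM, a quasi-likelihood fit of all 9 libraries with condition as the only term, Benjamini-Hochberg adjustment over all 12575 genes tested, called at an adjusted p under 0.05). The SE is the absolute log2 fold change over the square root of F. CPM is TMM-scaled, log2 CPM for correlations has a prior count of 2, RPKM divides by the exon union of the GENCODE annotation of GRCm38, and ratios have 0.5 added to each count. Of 24421 genes 24054 had a transcript. On simulated counts for 3D against 2D with 12420 genes, 86 of 100 genes changed 2-fold and 97 of 100 changed 4-fold were recovered with 6 false calls. Only 200 genes were changed there, and every gene had the same dispersion, whereas 68.3% of all genes were called in the data. These figures therefore do not measure the accuracy of the calls made here. Alternatives were DESeq2 1.42.0, other scalings and filters, only the 2 groups compared, a replicate block, the Rn45s share as a covariate, a correction for GC content and transcript length within libraries (splines with 4 degrees of freedom), a minimum absolute log2 fold change of 0.5, a pseudocount of 1, the longest transcript as length, and leaving out each of the 9 libraries.

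The members and lists were chosen with earlier results of these data known. Beside the 10 genes, up to 3 called genes per list with the smallest p, the 3 genes most correlated with Scd1, Fads2 and Elovl6, the leading markers and Rn45s were named, and other names were added after their values were seen. Some genes that this rule names are not reported here. No 2 libraries of a condition were copies: the chi-square value per gene was 3.89 to 19.7. Counting error alone does not include variation between cultures.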

Additional observations from a re-analysis of the deposited data

How the results depend on the processing

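In 3D against 2D with palmitate, Scd2, Fads1, Fads2, Fads3 and Elovl7 kept their direction and call under all alternatives run, as did Elovl4 except with at least 10 counts in every library, where it could not be tested. The number of the 10 genes called was 9, and 7 to 10 with 1 library left out. A minimum absolute log2 fold change of 0.5 left 5113 called genes of 8594, 31 of the 60 called list genes and 5 members lower. No value under any alternative was a called change of the opposite sign. With palmitate in 3D, the number called over all genes was 275, and it was 617 with no filter, 77 in a fit of the 2 groups alone, 182 with DESeq2 on those groups, 111 with the replicate block, 44 with the Rn45s covariate, 965 with the GC and length trend removed (272 of the 275 among them), 119 with the minimum of 0.5, and 71 (without 3D replicate 3) to 1901 (without 3D+palmitate replicate 3) with 1 library left out. The share of these that were higher was 62.9%, but 46.7% with scaling by library size only and 52.7% with no filter. The called list genes there were 8, and 4 with the 2 groups, 4 with the block, 2 with the Rn45s covariate, 4 with the minimum, and 3 to 18 with 1 library left out. Of the 10 members 1, Fads3, was called with the GC and length trend removed, and 0 to 1 with 1 library left out. With the longest transcript as length, Scd2 held 52.4%, 53.3% and 49.2% of the members' RPKM in 2D+palmitate, 3D and 3D+palmitate. Where values moved, the cause was not tested. Libraries with the same replicate number did not visibly deviate together (median r = -0.05 over 9 pairs, and 0.03 over the 18 pairs with other numbers). Deviations from a mean of 3 libraries are not independent, so a weak pairing could have been missed. Nothing in the labels says whether the numbers pair libraries. The replicate block gave Elovl6 a call in 3D against 2D (0.30, adjusted p = 0.0443) and changed no other member's call. Elovl4 and Scd4, with few counts per 3D library, are limited by depth.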
